A study of Mus musculus with 48 samples.

Results

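Enzymes that make, convert and inactivate steroid hormones were followed in the livers of male mice that carried no, 1 or 2 functional copies of Wfs1, the gene of the endoplasmic reticulum protein wolframin. The set consisted of Hsd3b2, Hsd3b3, Hsd3b5, Cyp17a1, Hsd11b1, Hsd17b2, Srd5a1, Akr1c6 and Hsd17b6. Of these 9 genes, 8 had a probeset of their own among the 19938 genes that did, and Srd5a1 was not analysed here. A further value, held in the same form by 2 probesets that are shared between Hsd3b5, Hsd3b4 and Gm10681, was kept apart and is called the shared Hsd3b value.

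The livers of 48 mice were each put on an array of their own, and the mice formed 6 groups of 8. Wfs1 knockout (KO, Wfs1 -/-), heterozygous (HZ, Wfs1 +/-) and wild type (WT, Wfs1 +/+) mice had each been injected daily for 12 weeks with valproic acid (VPA, 300 mg/kg i.p.), an antiepileptic and mood stabilizing drug, or with saline (10 mL/kg i.p.). Treatment started at 4 to 6 weeks of age, and the liver was taken at 16 to 18 weeks, 24 hours after a glucose tolerance test (2 g/kg) that all groups underwent and 48 hours after the last injection. The KO allele was made by disabling only some exons of Wfs1.

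Steroid hormones are built from cholesterol in the adrenal gland and the gonads, and the liver mainly converts and clears them. Enzymes of the 3-beta-hydroxysteroid dehydrogenase family (Hsd3b) act on the A and B rings of the steroid, Cyp17a1 carries out the 17-alpha-hydroxylase and 17,20-lyase steps, and 17-beta-hydroxysteroid dehydrogenases (Hsd17b) switch sex steroids between more and less active forms. Hsd11b1 regenerates active glucocorticoid inside the cell. In the mouse, several of these genes are expressed at different levels in male and female liver, a difference set by the pattern of growth hormone release.

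Values are RMA values on the log2 scale, in which a difference of 1 is a doubling. The Wfs1 probeset did not pass the test between KO and WT mice (log2 difference -0.15 ± 0.07 SE, adjusted p = 0.32), so the array value of the targeted gene did not serve to check the genotypes. The array medians lay between 6.90 and 7.03, and the correlation between any 2 arrays was at least 0.971. Of the hepatocyte markers, 6 of 8 were measured and 0 of them passed the test between KO and WT mice, and their mean lay between 13.4 and 13.5 in every group. The mean of the 8 adrenal cortex markers, which would show stray adrenal tissue, was between 6.24 and 6.43 in every group, and 0 of 8 passed between KO and WT mice. Among markers of other cells, Sox9 of cholangiocytes (-0.30), Cd4 of lymphocytes (-0.35), Alas2 of erythroid cells (-1.24) and Cela1 of pancreas (-0.17) were lower in KO than in WT mice, each as the 1 called gene of its list, and their part in the results was not tested. In whole liver, fewer cells of a type and less RNA per cell cannot be told apart.

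The Hsd3b members lie side by side on chromosome 3 of GRCm38, in a cluster of 6 Hsd3b genes that spans 98499071 to 98859794. Hsd3b5 occupies 98618636 to 98645534, Hsd3b2 occupies 98711107 to 98724543 and Hsd3b3 occupies 98741476 to 98764540. The other members are scattered, with Cyp17a1 on chromosome 19 (46667165 to 46673000), Hsd11b1 on chromosome 1 (193221640 to 193264045), Hsd17b2 on chromosome 8 (117700982 to 117759030), Hsd17b6 on chromosome 10 (127990931 to 128007648) and Akr1c6 on chromosome 13 (4434311 to 4457530).

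The 250 bases before a RefSeq start (GRCm38.p6) of Hsd3b5, Hsd3b3 and Hsd3b2 are shown because these members of the cluster gave different results in KO mice. For Hsd3b3, promoter windows were given for 2 starts, at chr3:98763079-98763378 and chr3:98762361-98762660. Both lie inside the annotated span of the gene, and the stretch before the first of these starts is shown. All 3 lie on the minus strand, at chr3:98645535-98645784 for Hsd3b5, chr3:98763129-98763378 for Hsd3b3 and chr3:98724544-98724793 for Hsd3b2. Capitals mark, in Hsd3b5 and Hsd3b3, the longest run of bases that these 2 share and, in Hsd3b2, a match to a receptor motif that is given after the sequences.
Hsd3b5: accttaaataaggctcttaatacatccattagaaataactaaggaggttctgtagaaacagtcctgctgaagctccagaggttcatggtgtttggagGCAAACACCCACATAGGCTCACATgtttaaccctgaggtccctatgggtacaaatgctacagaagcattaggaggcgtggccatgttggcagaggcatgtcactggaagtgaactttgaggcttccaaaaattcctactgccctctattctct
Hsd3b3: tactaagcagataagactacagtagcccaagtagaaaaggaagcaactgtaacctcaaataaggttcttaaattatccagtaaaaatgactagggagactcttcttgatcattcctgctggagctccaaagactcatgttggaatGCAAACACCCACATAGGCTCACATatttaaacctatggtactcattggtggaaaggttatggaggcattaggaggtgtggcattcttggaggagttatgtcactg
Hsd3b2: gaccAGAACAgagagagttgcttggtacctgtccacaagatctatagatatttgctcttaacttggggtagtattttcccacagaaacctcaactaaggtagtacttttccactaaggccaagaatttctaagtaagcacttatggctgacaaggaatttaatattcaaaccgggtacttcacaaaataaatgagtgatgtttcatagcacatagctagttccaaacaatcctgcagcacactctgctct

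The promoters of Hsd3b5 and Hsd3b3 could be aligned over 197 bases, of which 154 (78.2%) were identical, and their longest shared run was 24 bases long. This run began 153 bases before the start of Hsd3b5 and 105 bases before the Hsd3b3 start used here. The same stretch thus lies at different distances from these 2 starts. The window of the other annotated start of Hsd3b3 holds this run too, at nearly the same distance from its start. Those of Hsd3b5 and Hsd3b2 could be aligned over 188 bases, of which 140 (74.5%) were identical, and the longest run shared by this pair was 8 bases. Hsd3b3 and Hsd3b2 gave 75.9% over 87 bases, so this share alone did not set the pairs apart. Over windows that reach 50 bases past the start, identity was 54.1% for Hsd3b5 and Hsd3b3. It was 51.0% for Hsd3b5 and Hsd3b2 and 44.5% for Hsd3b2 and Hsd3b3. RefSeq promoter windows, which run from 250 bases before the start to 50 bases after it, were given for 7 of the 9 members, with none for Cyp17a1 and Hsd17b2. They were searched on both strands for the STAT5 motif TTCNNNGAA (found in 8.30% of all 32851 promoter windows of this length), TGTTCT, a core of the glucocorticoid and androgen receptor element (19.0%), and AGGTCA, a nuclear receptor core motif (16.3%), none of which overlapped in the windows searched. Among the measured members with a window, the only match was to TGTTCT, on the opposite strand in Hsd3b2, 246 bases before its start. No match was found in the Hsd3b5 window, which says only that these letters are not in it.

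In livers of KO mice, Hsd3b5 was 5.89-fold lower and Cyp17a1 was 2.99-fold higher than in WT mice, averaged over both treatments. Hsd17b2 was 1.41-fold lower in KO mice, and Hsd17b6 was 1.29-fold higher. Of the 8 members, 4 passed the test between KO and WT mice, 2 higher and 2 lower, with limma and Benjamini-Hochberg adjustment over all probesets, where 2.94% of 35556 probesets did (1.37% higher and 1.57% lower). The median difference of the 8 members was -0.14 (log2), against 0.0067 for all probesets. Hsd3b2, Hsd3b3, Hsd11b1 and Akr1c6 did not pass. Hsd3b5 and Cyp17a1 had been listed by the study as genotype dependent in these same mice, so their direction is not independent evidence.

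Hsd3b5 encodes a member of the Hsd3b family that is found mainly in the liver of male mice, where it works as a 3-ketosteroid reductase and inactivates steroids. Its lowest, median and highest log2 values were 6.27, 10.3 and 12.2 in KO mice on VPA and 5.90, 9.36 and 12.3 in KO mice on saline. In HZ mice they were 11.7, 12.2 and 12.7 on VPA and 10.6, 11.7 and 12.5 on saline. In WT mice they were 11.9, 12.3 and 12.6 on VPA and 11.4, 12.2 and 12.6 on saline. The highest KO mice thus lay among the WT mice, while 13 of 16 KO mice lay below every WT mouse of the same treatment. The spread between KO mice was wide, with an SD of 1.82 on VPA and 2.52 on saline, against 0.22 and 0.38 in WT mice on VPA and on saline. On the log2 scale KO mice differed from WT mice by -2.56 ± 0.45 (SE, n = 16 each, 95% interval -3.46 to -1.65, limma adjusted p = 0.000265). This SE comes from an error common to all 6 groups, so the interval may be too narrow for the spread of the KO mice. Within saline mice the SE was 0.63, and 0.80 with the saline KO and WT arrays alone.

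Values at the bottom of the Hsd3b5 range came from 3 KO mice, which read 5.90 (saline, replicate 4), 5.93 (saline, replicate 5) and 6.27 (VPA, replicate 4). The test between KO and WT mice passed without any 1 of the 48 arrays. Within saline mice, where 0.79% of probesets passed, the difference was -2.89 ± 0.63 (adjusted p = 0.013), but the call was lost without KO saline replicate 4 (-2.41, adjusted p = 0.061) or replicate 5 (-2.42, adjusted p = 0.052), and when the fit held the saline KO and WT arrays alone (adjusted p = 0.22). Within VPA mice, where 0.405% of probesets passed, it was -2.23 ± 0.63 (adjusted p = 0.12) and did not pass, except without KO VPA replicate 1 (-2.54, adjusted p = 0.043). The VPA and saline differences were not shown to differ from each other (0.67 ± 0.90, adjusted p = 1.00).

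The shared Hsd3b value fell too. Its lowest, median and highest log2 values were 6.79, 7.02 and 8.05 in KO mice on VPA and 6.54, 7.00 and 8.26 in KO mice on saline, against 7.85, 8.24 and 8.45 in WT mice on VPA and 7.71, 8.29 and 8.405 in WT mice on saline. It was 2.04-fold lower in KO than in WT mice (log2 difference -1.03 ± 0.13) and passed within saline (-1.03, adjusted p = 0.0025) and within VPA mice (-1.03, adjusted p = 0.0027). Its probes match several genes of the cluster, and how much of the signal came from each cannot be told from the value.

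Cyp17a1 encodes the enzyme that takes pregnenolone and progesterone towards androgens, and its mRNA is also found in mouse liver. Its lowest, median and highest log2 values were 8.73, 10.2 and 12.5 in KO mice on VPA and 9.98, 11.2 and 12.6 in KO mice on saline. In HZ mice they were 7.95, 8.65 and 9.08 on VPA and 8.54, 9.58 and 10.7 on saline. In WT mice they were 8.45, 9.40 and 10.8 on VPA and 7.78, 9.28 and 10.8 on saline. The groups overlapped, with 15 of 16 KO mice above the WT mean of their treatment and 7 of 16 above every such WT mouse. Set against WT mice, KO mice were higher by 1.58 ± 0.31 on the log2 scale (SE, 95% interval 0.94 to 2.21, adjusted p = 0.0015), which passed without any 1 of the 48 arrays. The difference was 2.02 ± 0.44 within saline mice (adjusted p = 0.013, lost without KO saline replicate 4 at 0.054 and with only the arrays compared at 0.10) and 1.14 ± 0.44 within VPA mice (adjusted p = 0.40).

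Hsd17b2 oxidizes estradiol and testosterone to their weaker 17-keto forms. Its lowest, median and highest log2 values were 11.0, 11.7 and 11.9 in KO mice on VPA and 10.6, 11.2 and 11.9 in KO mice on saline. In HZ mice they were 11.6, 12.1 and 12.3 on VPA and 11.0, 11.5 and 12.0 on saline, and in WT mice they were 11.7, 11.9 and 12.2 on VPA and 11.5, 11.9 and 12.1 on saline. Of the KO mice, 15 of 16 lay below the mean of the WT mice given the same treatment and 11 of 16 below every such WT mouse. The log2 difference of KO from WT mice was -0.50 ± 0.10 (SE, limma adjusted p = 0.0013). It was -0.60 ± 0.14 within saline mice (adjusted p = 0.019, lost without KO saline replicate 4 at 0.085, with array weights at 0.072 and with only the arrays compared at 0.12) and -0.39 ± 0.14 within VPA mice (adjusted p = 0.31).

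Hsd17b6 takes part in the back conversion and inactivation of androgens. Its lowest, median and highest log2 values were 11.8, 12.2 and 12.3 in KO mice on VPA and 12.3, 12.8 and 13.03 in KO mice on saline. In HZ mice they were 11.6, 12.2 and 12.5 on VPA and 11.7, 12.0 and 12.2 on saline, and in WT mice they were 10.7, 11.9 and 12.5 on VPA and 12.0, 12.4 and 12.8 on saline. KO mice on saline were the highest group, but the difference from the next, WT mice on saline, did not pass (0.35 ± 0.15 SE, adjusted p = 0.41), nor did that of KO from WT mice within VPA mice (0.39 ± 0.15, adjusted p = 0.41). The log2 difference of KO from WT mice was 0.37 ± 0.11 (SE, limma adjusted p = 0.046), with 15 of 16 KO mice above the WT mean of their treatment. This call lay close to the threshold and was lost without any 1 of 24 of the 48 arrays and under 5 of 9 other settings.

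**Figure D1:**
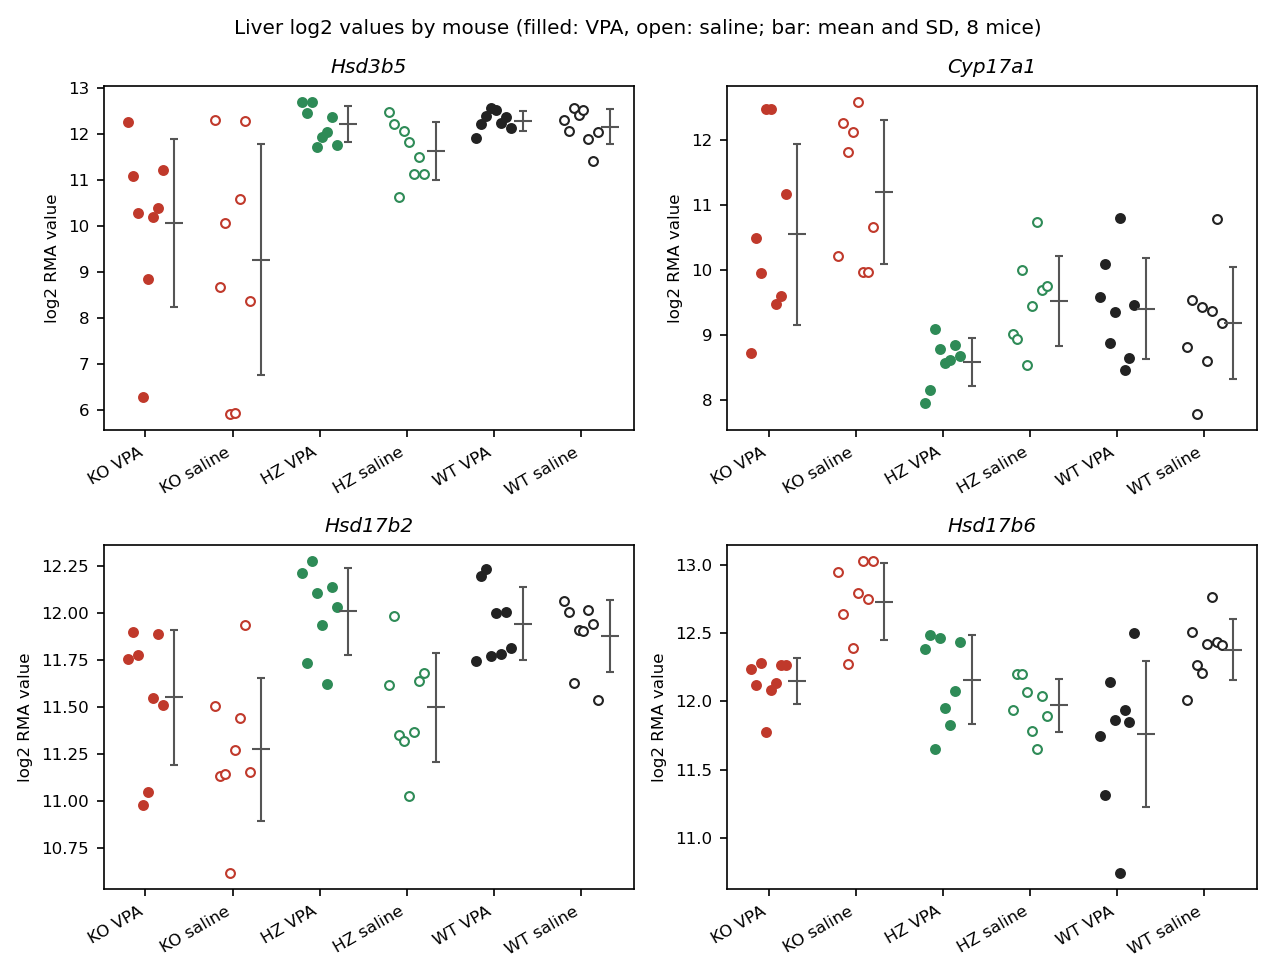
Log2 RMA values (y axes) of Hsd3b5, Cyp17a1, Hsd17b2 and Hsd17b6 in the 6 groups of 8 mice (x axes), 1 point per mouse, filled for VPA and open for saline, with the group mean and SD beside the points. Hsd3b5 ran between 5.90 and 12.3 in KO mice on saline, while the WT mice on saline lay between 11.4 and 12.6.

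The remaining members were narrower in range. Hsd3b2, whose family role in mouse liver is less well described, averaged 10.8 ± 0.67 in KO mice on VPA and 10.8 ± 0.55 in KO mice on saline, against 11.0 ± 0.37 in WT mice on VPA and 11.3 ± 0.58 in WT mice on saline (SD, n = 8 each). Its difference of -0.33 ± 0.17 (SE) did not pass (adjusted p = 0.38), and its 95% interval ran between -0.66 and 0.0067. Hsd3b3, another liver member of the family, differed by -0.13 ± 0.07 (adjusted p = 0.40, interval -0.26 to 0.0060). The intervals of Hsd3b2 and Hsd3b3, which both lie on the same side of Hsd3b5, thus did not reach the -1.65 at which that of Hsd3b5 ended. The difference between the genes was not tested. Gm10681 and Hsd3b4, on the other side of Hsd3b5, had no probeset of their own and were read only by the shared Hsd3b value (-1.03). The other Hsd3b genes of the cluster with their own probeset were Hsd3b6 (-0.20 ± 0.07, adjusted p = 0.15) and Hsd3b1 (0.09 ± 0.05, adjusted p = 0.43), and neither passed.

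Hsd11b1 averaged 12.0 ± 0.12 in KO mice on VPA and 12.1 ± 0.10 in KO mice on saline, against 12.0 ± 0.14 in WT mice on VPA and 11.9 ± 0.11 in WT mice on saline (SD). The difference of 0.08 ± 0.05 (SE) did not pass (adjusted p = 0.47), and its 95% interval ran between -0.01 and 0.17. Akr1c6, a mouse 17-beta-hydroxysteroid dehydrogenase of the aldo-keto reductase family, averaged 13.1 ± 0.24 and 13.1 ± 0.17 in KO mice on VPA and on saline, against 13.2 ± 0.18 and 13.3 ± 0.19 in WT mice on VPA and on saline. Its difference was -0.16 ± 0.07 (adjusted p = 0.24), and 13 of 16 KO mice lay under the mean of the WT mice given the same treatment.

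**Figure D2:**
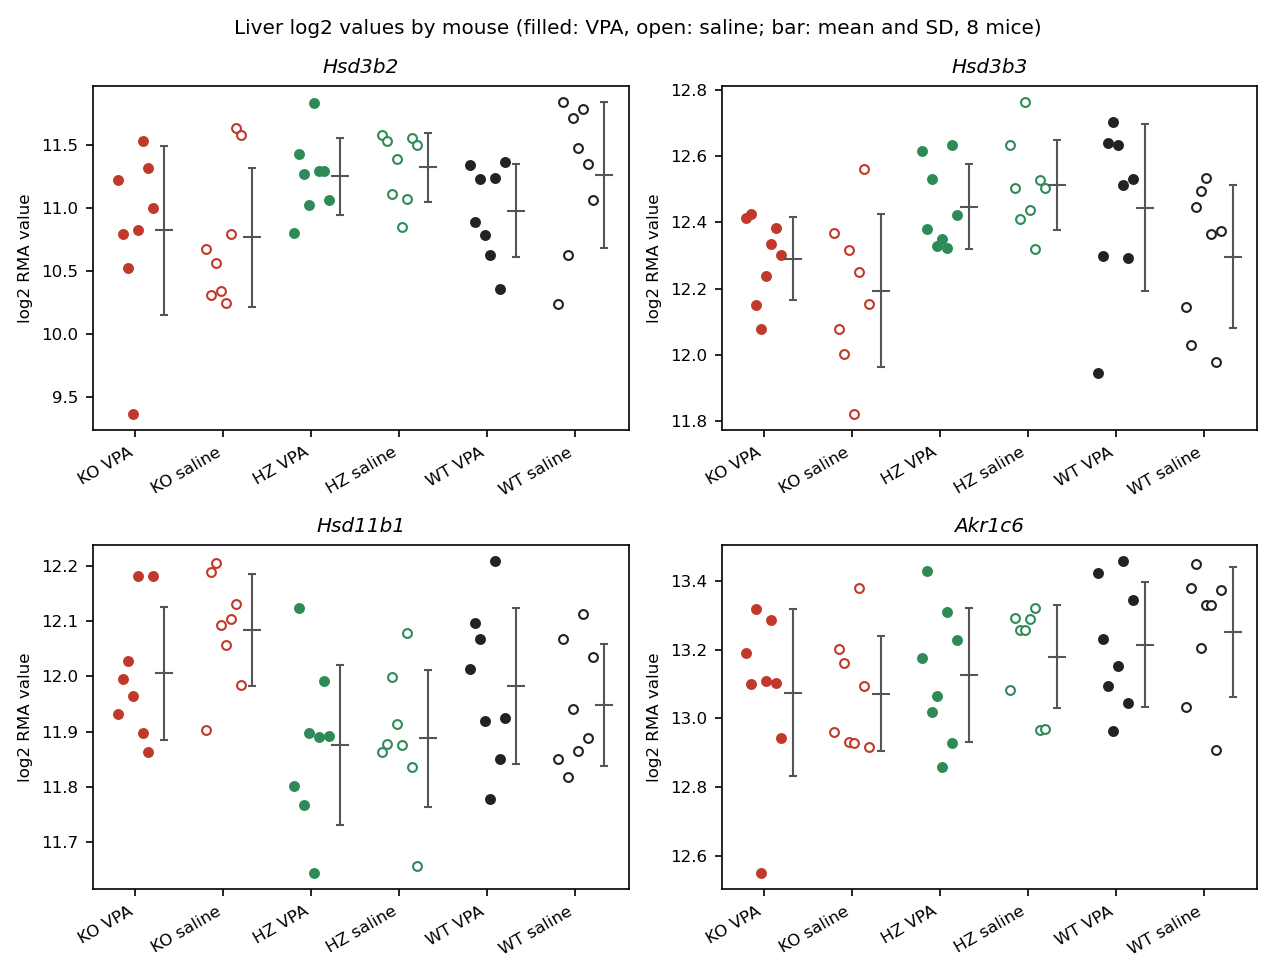
Log2 RMA values (y axes) of Hsd3b2, Hsd3b3, Hsd11b1 and Akr1c6 in the 6 groups of 8 mice (x axes), 1 point per mouse, filled for VPA and open for saline, with the group mean and SD. The groups overlapped for all 4 genes, and the lowest Hsd3b2 value, 9.36, came from a KO mouse on VPA.

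In HZ mice, which kept 1 functional copy, 0 of 8 members passed against WT mice over both treatments, where 0.00281% of probesets did, and 0 of 8 had an unadjusted p under 0.05. The differences lay between -0.31 ± 0.45 for Hsd3b5 and 0.17 ± 0.17 for Hsd3b2 (SE). Because of the spread among KO mice, which enters the common error, the 95% interval for Hsd3b5 was wide and ran between -1.21 and 0.60. That for Cyp17a1 ran between -0.88 and 0.39. Within treatments 0 of 8 passed as well, where 0.304% of probesets did within saline and 0.00281% within VPA mice, but the values of Hsd17b6 lay in opposite directions. It differed by 0.40 ± 0.15 within VPA mice (7 of 8 HZ mice above the WT mean, unadjusted p = 0.012, limma adjusted p = 1.00) and by -0.41 ± 0.15 within saline mice (8 of 8 below, unadjusted p = 0.010, limma adjusted p = 0.30), and the change between these differences was 0.80 ± 0.21 (adjusted p = 0.36). Within saline mice 3 members had an unadjusted p under 0.05, the others being Hsd17b2 (-0.38 ± 0.14, limma adjusted p = 0.29) and Hsd3b3 (0.22 ± 0.09, limma adjusted p = 0.40).

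KO mice were also set against HZ mice, a comparison that shares the KO mice with the one above. Here 2 of 8 members passed, 1 in each direction, where 1.44% of probesets did (0.661% higher and 0.779% lower). Hsd3b5 was 4.76-fold lower in KO than in HZ mice (log2 difference -2.25 ± 0.45, adjusted p = 0.0025), and Cyp17a1 was 3.55-fold higher (1.83 ± 0.31, adjusted p = 0.00042), with 16 of 16 KO mice above the HZ mean of their treatment. Hsd3b3 (-0.24 ± 0.07, adjusted p = 0.055), Hsd11b1 (0.16 ± 0.05, 0.056), Hsd17b6 (0.37 ± 0.11, 0.067) and Hsd17b2 (-0.34 ± 0.10, 0.069) were just short of passing at 0.05. Within saline mice, where 1.39% of probesets passed, 3 of 8 members passed. Hsd17b6 was 1.69-fold higher in KO than in HZ mice (0.76 ± 0.15, adjusted p = 0.0027), with all 8 KO mice above the HZ mean. Hsd3b5 (-2.36 ± 0.63, adjusted p = 0.042) and Cyp17a1 (1.69 ± 0.44, adjusted p = 0.038) also passed. Their calls were lost without any 1 of 10 arrays for Hsd3b5 and of 9 for Cyp17a1. Within VPA mice, where 0.298% of probesets passed, only Cyp17a1 did (1.96 ± 0.44, adjusted p = 0.028, lost without any 1 of 5 arrays). There the Hsd17b6 difference was -0.01 ± 0.15. The change between the 2 Hsd17b6 differences, -0.77 ± 0.21, did not pass (adjusted p = 0.12). Among markers of other cells, 2 of 9 of liver endothelium (Kdr, 0.23, and Bmp2, 0.35) and 1 of 9 of stellate cells (Reln, 0.23) were higher in KO than in HZ mice, and Sox9 (-0.30), Cd4 (-0.34) and Alas2 (-1.17) were lower. The mean of the endothelial markers was 9.21 ± 0.14 in HZ mice on saline (SD), against 9.51 to 9.63 in the other 5 groups. Their part in these differences was not tested.

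**Figure D3:**
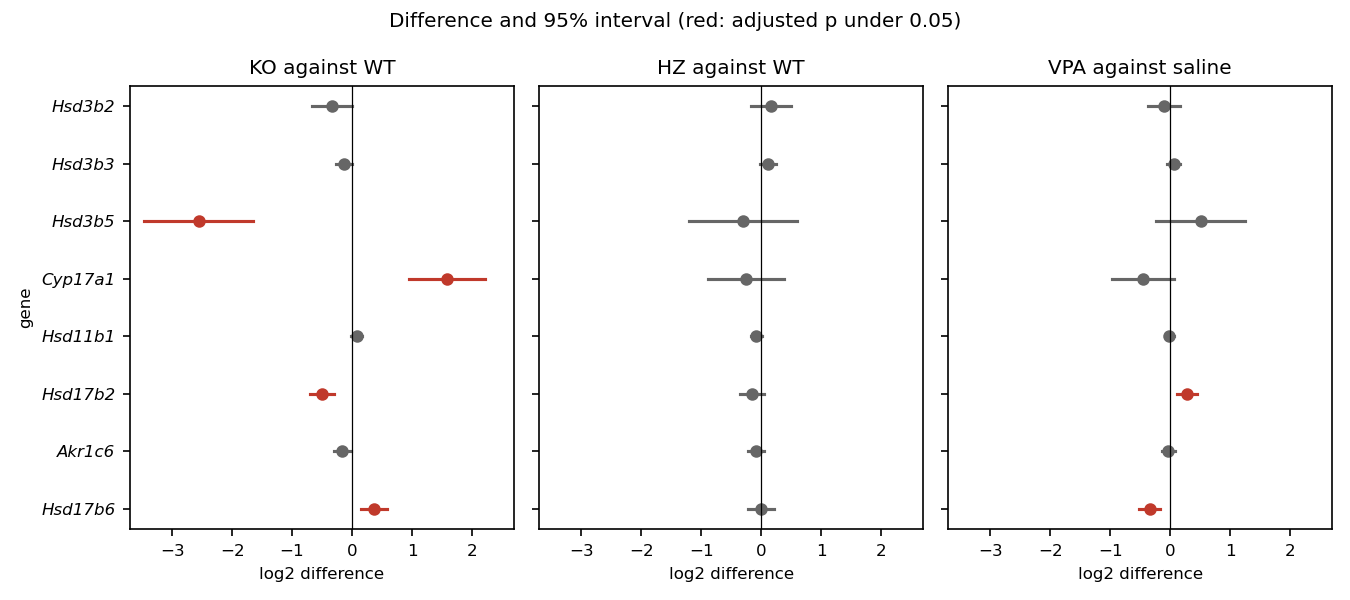
Log2 difference (x axes) with its 95% interval for the 8 measured members (y axis) in KO against WT, HZ against WT and VPA against saline, from the fit over all 48 arrays. Red marks an adjusted p under 0.05. Hsd3b5 (-2.56) and Cyp17a1 (1.58) stood furthest from 0 in KO against WT, and no interval of HZ against WT excluded 0.

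Between VPA and saline mice 2 of the 8 members passed, 1 in each direction, where 8.61% of probesets did (4.01% higher and 4.6% lower). Hsd17b2 was 1.22-fold higher in VPA than in saline mice over the 3 genotypes (log2 difference 0.28 ± 0.08 SE, adjusted p = 0.020, 18 of 24 VPA mice above the saline mean of their genotype). Hsd17b6 was 1.26-fold lower (-0.34 ± 0.09, adjusted p = 0.011, 18 of 24 below). For Hsd3b5 (0.51 ± 0.37, adjusted p = 0.38) and Cyp17a1 (-0.46 ± 0.26, adjusted p = 0.25) the test did not pass. The intervals of these differences ran between -0.23 and 1.25 for Hsd3b5 and between -0.97 and 0.06 for Cyp17a1. Hsd3b2, Hsd3b3, Hsd11b1 and Akr1c6 differed by -0.10, 0.06, -0.02 and -0.03, and none passed.

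The VPA difference of Hsd17b2 was 0.51 ± 0.14 in HZ mice (adjusted p = 0.015, where 10.5% of probesets passed), 0.28 ± 0.14 in KO mice (adjusted p = 0.70) and 0.07 ± 0.14 in WT mice (adjusted p = 1.00). In HZ mice all 8 VPA mice lay above the saline mean. The VPA difference of Hsd17b6 was -0.58 ± 0.15 in KO mice (all 8 below the saline mean), 0.19 ± 0.15 in HZ mice and -0.62 ± 0.15 in WT mice (7 of 8 below). With all arrays kept and adjustment over all probesets, 0.0112% of probesets passed in KO, 10.5% in HZ and 0.0703% in WT mice. Hsd17b6 passed within no genotype. In WT mice it passed without WT saline replicate 1 (-0.67, adjusted p = 0.045) or WT VPA replicate 8 (-0.72, adjusted p = 0.020). The interaction of genotype and VPA, which tests whether these differences vary, passed for 0 of 8 members, where 0.0816% of probesets did. It had the lowest p for Hsd17b6 (unadjusted p = 0.00052, limma adjusted p = 0.15), which was the 1 member with an unadjusted p under 0.05. The study's thresholds, without adjustment, were also put on a fit made here without the moderation of eBayes. In it Hsd3b5 and Cyp17a1 passed for genotype, Hsd17b6 for VPA and Hsd17b6 for the interaction. The study's published lists for VPA and for the interaction do not name Hsd17b6.

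Other readouts moved with VPA. An index of 12 clock genes, high where Arntl is high, averaged -0.08 ± 0.42 and -0.47 ± 0.41 in KO mice on VPA and on saline, 0.88 ± 0.34 and -1.13 ± 0.19 in HZ mice on VPA and on saline, and 1.08 ± 0.33 and -0.28 ± 0.43 in WT mice on VPA and on saline (SD). The VPA and saline ranges did not overlap in HZ mice, and in WT mice the lowest VPA value and the highest saline value were both 0.55. With the index as a covariate the VPA difference was 0.39 ± 0.17 for Hsd17b2 and -0.22 ± 0.18 for Hsd17b6 (SE, against SEs of 0.08 and 0.09 without it). Neither passed, nor did any probeset. Because the index nearly separated VPA from saline mice in HZ and WT mice, this fit cannot tell the index and VPA apart. Of 11 Kupffer cell markers 6 were higher with VPA, of 9 markers of liver endothelium 4 and of 9 of stellate cells 2, where 4.01% of probesets were. Of 6 hepatocyte markers 1 was higher. Adrenal cortex (8 markers) and cholangiocytes (5) each had 1 higher and 1 lower. Neutrophils (7), erythroid cells (2) and adipocytes (5) each had 1 lower, where 4.6% of probesets were. Kidney tubule, lymphocyte and pancreas markers had 0 that passed. The mean of the Kupffer cell markers was 8.98, 9.23 and 9.11 in KO, HZ and WT mice on VPA, against 8.88, 8.58 and 8.95 in KO, HZ and WT mice on saline. Their part in the differences of Hsd17b2 and Hsd17b6 was not tested.

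Across mice, Hsd3b5 and Cyp17a1 ran in opposite directions. With the group means taken out, Pearson's r between them was -0.66 and Spearman's rho -0.61 over 48 mice (permutation within groups, two-sided, p = 3e-05 and 0.00016, adjusted to 0.00018 and 0.00096). It was -0.76 among the 16 KO mice and -0.54 among the 32 HZ and WT mice, and -0.61 without the 2 mice furthest from the median. Hsd3b5 and Hsd17b2 ran together (r = 0.60, rho = 0.47), with r = 0.44 without the 2 mice furthest from the median, 0.79 in KO mice and 0.18 in the others. The correlation of Cyp17a1 with Hsd17b2 passed by Pearson's r (-0.40, permutation p = 0.016, adjusted to 0.028) and not by Spearman's rho (-0.29, permutation p = 0.067, adjusted to 0.12), and r was -0.26 without the 2 mice furthest from the median, -0.76 in KO mice and 0.11 in the others. Differences in r between KO mice and the others were not tested. Cyp17a1 and Hsd17b6 also ran in opposite directions (r = -0.42, rho = -0.42, with r = -0.40 without the 2 mice furthest from the median, -0.60 in KO mice and -0.39 in the others). Hsd17b6 did not pass with Hsd3b5 (r = 0.15, with 0.46 in KO mice and -0.17 in the others). Nor did it with Hsd17b2 (r = 0.18, with 0.57 in KO mice and -0.0047 in the others).

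**Figure D4:**
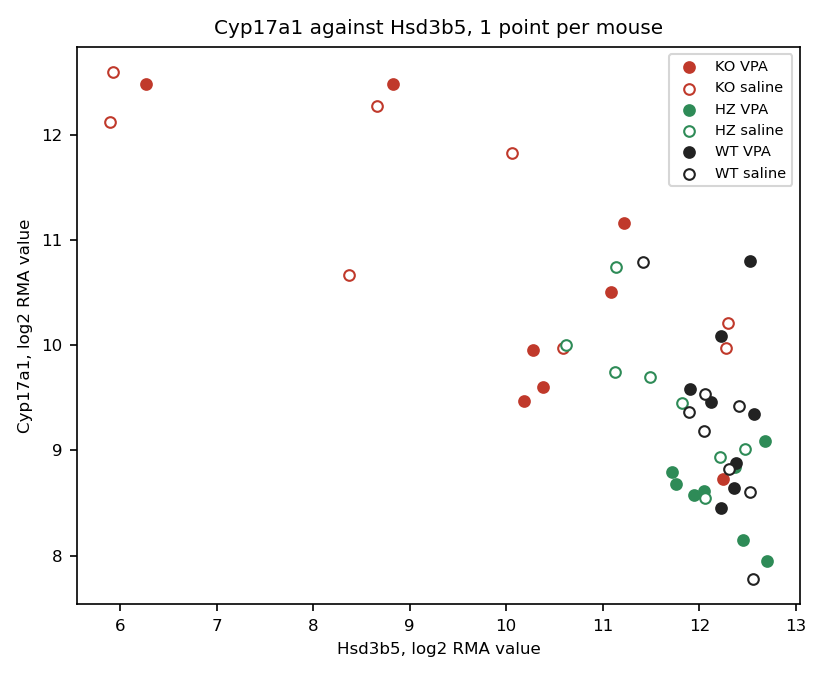
Cyp17a1 (y axis) against Hsd3b5 (x axis), both as log2 RMA values, with 1 point per mouse coloured by genotype and filled for VPA. The 3 KO mice with the lowest Hsd3b5 values, 5.90 to 6.27, had Cyp17a1 values of 12.1 to 12.6.

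Genes with a known sex difference in mouse liver were measured alongside, in lists that hold none of the members. Of 17 male-biased genes, 15 were lower in KO than in WT mice, with a median difference of -1.08, where 1.57% of all probesets were lower. Of 16 female-biased genes 11 were higher, where 1.37% of all probesets were, and 1, the sulfotransferase gene Sult2a8, was lower (-0.60). Some of these genes had been picked by the study from the same mice. The largest falls among them were those of Elovl3, a fatty acid elongase (-3.65), and Cyp4a12a, a cytochrome P450 that is male-specific in mice (-2.16), and the largest rise was that of the sulfotransferase gene Sult3a1 (4.19). The mean of the male-biased genes ran between 8.66 and 11.1 in KO mice on VPA and between 8.51 and 11.0 in KO mice on saline, against 11.1 to 11.4 in WT mice on VPA and 11.1 to 11.5 in WT mice on saline.

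The mean of the male-biased genes followed Hsd3b5 mouse by mouse (r = 0.91, rho = 0.68, n = 48, permutation p = 1e-05 for r, the smallest the permutations could give), with r = 0.94 in KO mice and 0.54 in the others. With Cyp17a1 the correlation was -0.70 (-0.86 in KO mice, -0.28 in the others) and with Hsd17b2 it was 0.61 (0.78 and 0.27 in the same order). The mean of the female-biased genes ran the other way, with r = -0.65 for Hsd3b5, 0.55 for Cyp17a1 and -0.43 for Hsd17b2. For Hsd17b6 r was 0.21 with the male-biased mean (0.54 in KO mice, -0.07 in the others) and -0.10 with the female-biased mean (-0.37 and 0.08 in the same order). Over the 48 mice neither passed. The clock index gave r between -0.11 and 0.0055 with these 4 members. In all, 18 relations were computed, and Pearson's r of Hsd3b5, Cyp17a1 and Hsd17b2 with both lists passed at 0.05 after Benjamini-Hochberg adjustment over the 18. Spearman's rho passed too, except between Hsd17b2 and the female-biased genes (-0.35, permutation p = 0.029, adjusted to 0.059).

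**Figure D5:**
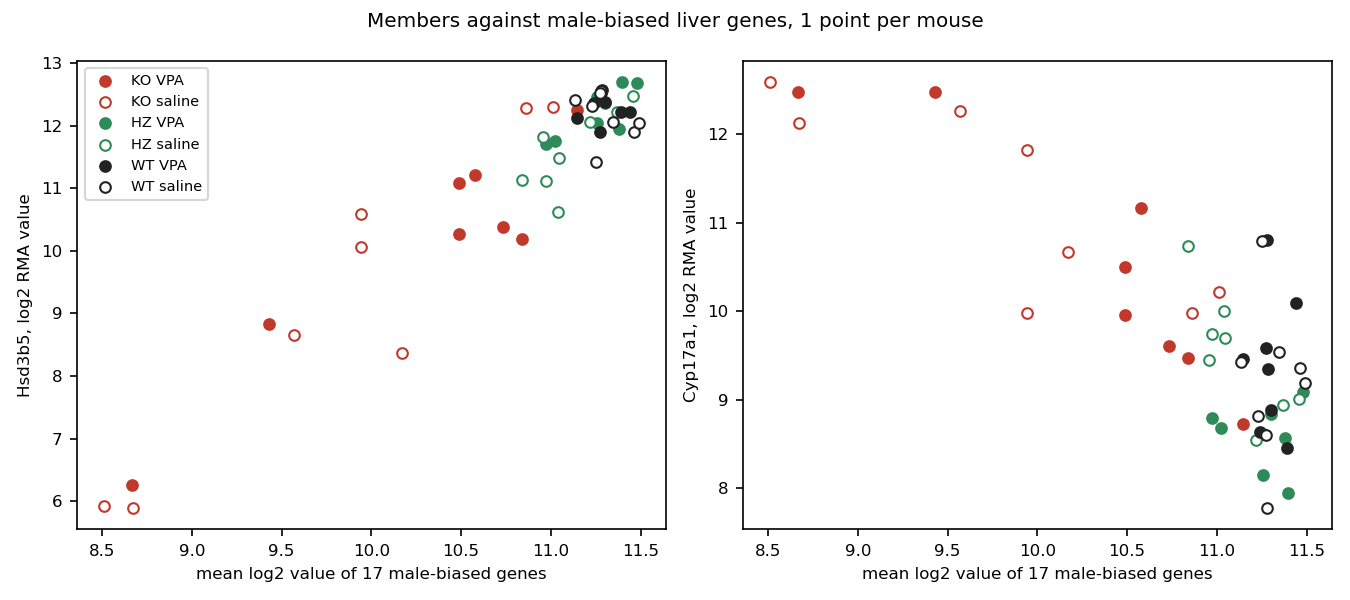
Hsd3b5 (left, y axis) and Cyp17a1 (right, y axis) against the mean of 17 male-biased liver genes (x axes), all as log2 RMA values, with 1 point per mouse coloured by genotype and filled for VPA. KO mice spread between 8.51 and 11.1 on the x axis, while the WT mice lay between 11.1 and 11.5.

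Over all 48 mice, group differences included, the genes most like Hsd3b5 were C6, a complement component (r = 0.92), Cyp4a12b (0.92) and Cyp4a12a (0.91), which are also in the male-biased list. Those most like Cyp17a1 were the proprotein convertase gene Pcsk5 (0.83), the flavin-containing monooxygenase gene Fmo2 (0.82) and the leptin receptor gene Lepr (0.81). Hsd17b2 was most like Scamp5 (0.86), Eps8l2 (0.85) and Irf5 (0.83). Hsd17b6 had no gene as close, with Slc17a2 (0.66), the coagulation factor gene F5 (0.59) and Flcn (0.57) at the top.

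Other enzymes of steroid metabolism did not move in 1 direction. Of 31 measured, 5 were higher and 4 lower in KO than in WT mice, with a median difference of 0.02. Of all probesets, 1.37% were higher and 1.57% lower. Cyp7b1, the oxysterol 7-alpha-hydroxylase, was 2.04 lower on the log2 scale in KO mice (-2.04 ± 0.25, adjusted p = 8.2e-07), and all 16 KO mice lay under the mean of the WT mice given the same treatment. Cyp39a1, which also hydroxylates oxysterols, was higher (0.83 ± 0.19), as were Rdh16 (0.51 ± 0.09), Hsd17b13, a lipid droplet protein (0.31 ± 0.06), the progesterone-inactivating Akr1c18 (0.30 ± 0.08) and the 5-beta-reductase Akr1d1 (0.27 ± 0.08). Hsd17b12 (-0.34 ± 0.09), which mainly elongates fatty acids, Hsd3b7 (-0.34 ± 0.08), an enzyme of bile acid synthesis, and Srd5a3 (-0.29 ± 0.06), which reduces polyprenol, were lower. Between KO and HZ mice, 3 were higher (Cyp39a1, Rdh16 and Hsd17b13) and 2 lower (Cyp7b1 and Hsd17b10), where 0.661% of all probesets were higher and 0.779% lower.

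With VPA, 3 of the 31 passed, 1 higher and 2 lower, a share near the 8.61% of all probesets. The enzyme that was higher was Dhrs9 (0.85 ± 0.11, adjusted p = 6.1e-07), a retinol and 3-alpha-hydroxysteroid dehydrogenase, with 24 of 24 VPA mice above the saline mean of their genotype. Akr1c19 (-0.50 ± 0.12) and Akr1c14, the mouse 3-alpha-hydroxysteroid dehydrogenase (-0.24 ± 0.06), were lower. The interaction of genotype and VPA passed for Hsd17b10 (adjusted p = 0.012), a mitochondrial dehydrogenase.

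Among 8 measured cofactors and regulators, H6pd, which supplies NADPH to Hsd11b1 in the endoplasmic reticulum, was lower in KO than in WT mice (-0.24 ± 0.06, adjusted p = 0.025) and in KO than in HZ mice (-0.26 ± 0.06, adjusted p = 0.023), while Star was lower with VPA (-0.14 ± 0.04). Of 11 receptors and binding proteins, 3 were higher and 0 lower in KO than in WT mice, where 1.37% of all probesets were higher and 1.57% lower. The 3 were Serpina6, the corticosteroid-binding globulin of plasma (0.50 ± 0.06, adjusted p = 1.8e-06, 16 of 16 KO mice above the WT mean), the xenobiotic receptor Nr1i2 (0.29 ± 0.07) and Nr5a2 (0.17 ± 0.05). With VPA, 4 of the 11 were lower, namely the xenobiotic receptor genes Nr1i3 (-0.43) and Nr1i2 (-0.30), the mineralocorticoid receptor gene Nr3c2 (-0.24) and Serpina6 (-0.20). Of all probesets, 4.6% were lower with VPA.

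Of 13 glucocorticoid-responsive genes, 3 were higher and 1 lower in KO than in WT mice, with a median difference of 0.33. Of all probesets, 1.37% were higher and 1.57% lower. The metallothionein gene Mt2 (1.88 ± 0.38), the clock gene Per1 (1.17 ± 0.25) and Fkbp5, a chaperone partner of the glucocorticoid receptor (0.64 ± 0.12, 16 of 16 KO mice above the WT mean), were higher. G6pc, the glucose-6-phosphatase gene, was lower (-0.41 ± 0.12). With VPA 1 of the 13 was higher, Sgk1 (0.26), and 4 were lower, Per1 (-1.17), the gluconeogenic gene Pck1 (-0.72), Errfi1 (-0.27) and Tat (-0.18). Of all probesets, 4.01% were higher with VPA and 4.6% lower. Corticosterone and sex steroids are not part of the values analysed here.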

How the data were processed

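Liver RNA was hybridized to Affymetrix Mouse Gene 1.0 ST arrays. The deposited values are log2 values that the authors made with the Affymetrix Expression Console (version 1.1.2800.28061) by the RMA method. RMA corrects background, quantile normalizes the arrays and summarizes probes, and the number of arrays limits the precision. No further normalization was applied. Groups were taken from the sample labels. Members were matched by the platform annotation, in which 21789 of 35556 probesets had 1 symbol, 1621 several and 12146 none.

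A mean for each of the 6 groups was fitted with limma 3.58.1 in R 4.3.3 (42 residual degrees of freedom, eBayes, two-sided), and the Benjamini-Hochberg adjustment ran over all 35556 probesets, with a threshold of 0.05 and 95% intervals from the t distribution. The fit was tested on simulated data. Correlations used 100000 permutations within groups on deviations from group means. Promoters were aligned with Biopython 1.88, locally for the stretches of 250 bases, and plots were made in Python 3.11.15 with matplotlib 3.10.9.

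The genes named were the members, genes of the lists that passed a main comparison, and the 3 genes most like each member that passed. The members and lists were chosen with earlier results of these data known. The labels say that each group held 8 animals. Replicate numbers were not taken to pair mice.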

Additional observations from a re-analysis of the deposited data

Results flagged for a closer look

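In 2 of 54 combinations of a probeset and a group, 1 mouse lay further from the other 7 than the usual spread allows by Dixon's criterion, which chance alone gives in about 1 of 20 groups. Both came from KO VPA replicate 4. Its Hsd3b2 value was 9.36, with the next lowest at 10.5 and the highest at 11.5, and its Hsd17b6 value was 11.8, with the next lowest at 12.1 and the highest at 12.3. The same mouse had the lowest Hsd3b5 value of its group, 6.27. Without it the KO against WT difference was -0.22 for Hsd3b2, which did not pass either way.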

How the results depend on the processing

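The KO against WT calls of Hsd3b5, Cyp17a1 and Hsd17b2 held under all 9 other settings and without each of the 48 arrays. That of Hsd17b6 was lost in 5 of the 9 settings, with an adjusted p of up to 0.37. With the clock index as a covariate, KO against WT called 405 probesets, KO against HZ called 5 members, and VPA and the interaction called 0 probesets and 0 members each. The index itself moved with VPA, so that fit cannot tell the index and VPA apart. In that fit Hsd3b2 turned direction, to -0.12 for HZ against WT and 0.59 for VPA, neither past the threshold. With each array centred on its median, Hsd11b1 turned to 0.0073 for VPA. With only the groups compared in the fit, KO against WT called 689 probesets, HZ against WT 6 probesets and KO against HZ 4 members. With probesets of 1 symbol, HZ against WT called 4 probesets, KO against HZ 6 members and the interaction 54 probesets. With a mean of 5 or more in some group required, HZ against WT called 2 probesets and KO against HZ 4 members, and with array weights the interaction called 133 probesets.

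With the replicate number as a block, HZ against WT called 2 probesets, KO against HZ 4 members and the interaction 54 probesets. Same-numbered residuals correlated by over 0.1 in 53 of 120 pairs, and 11 of 48 arrays were closest to an array of their own number. The mean correlation was 0.055 for same-numbered pairs from different groups, against -0.0078 for pairs with different numbers.

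Without each array in turn, KO against WT called 747 to 1261 probesets and 3 to 4 members, HZ against WT 1 to 5 probesets and 0 members, KO against HZ 380 to 646 probesets and 2 to 4 members, VPA 2334 to 4663 probesets (4663 without KO saline replicate 2) and 2 members, and the interaction 15 to 52 probesets and 0 members. Hsd17b6, close to 0, took both signs in HZ against WT (-0.0779 to 0.0474) and in KO against HZ within VPA mice (-0.0837 to 0.0416). The number of arrays and the spread among KO mice limit the precision.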
